A study of Bactrocera dorsalis with 6 samples.

Results

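A set of 36 unigenes, 0.333% of the 10799 assembled for the oriental fruit fly Bactrocera dorsalis, was expressed in the stages that feed and was low in eggs and pupae. A unigene is a group of assembled transcripts treated as one gene. Members were chosen by their own levels. Either larvae, males, virgin females and mated females were all at an FPKM of 11 or more with eggs and pupae both below 4, or the same 4 libraries were all at 26 or more with eggs and pupae both below 11. FPKM counts fragments per kilobase of transcript, relative to the size of the library, scaled here by TMM, which adjusts for differences in RNA composition. The first pair of bounds alone chose 19 members, the second pair alone chose 9, and 8 met both. Since these levels made the set, the contrast between feeding and non-feeding stages is described below and not tested.

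RNA of whole insects from one laboratory colony was sequenced as 1 library for each of 6 stages, namely adult males and females that had not mated, females that had mated, and the eggs, larvae and pupae. Eggs, larvae, pupae and virgin adults were pooled from daily collections into 1 library each. No stage had a replicate, and no difference between stages has a replicate check. Eggs were collected daily until all had hatched, larvae were reared on a liquid artificial diet, and adults were given sugar water and torula yeast. Virgin adults were sexed at emergence and collected daily, until the sexes were put together to mate. Mated females were taken after that, once mating was seen, so they were older than the virgin adults. Mating and age therefore cannot be told apart in the mated female library. In whole insects, a low value from fewer expressing cells and one from less RNA per cell cannot be told apart. The larval, male, female and mated female libraries are called the feeding libraries.

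Holometabolous flies eat as larvae and as adults, while the embryo lives on yolk and the pupa on reserves laid down by the larva. Food brings sugars, lipids and foreign compounds, and insects handle the last of these with cytochrome P450 monooxygenases, which oxidise them, and with glutathione S-transferases and UDP-glycosyltransferases, which attach glutathione or a sugar. In D. melanogaster many such genes are switched on by the transcription factor CncC, which is held back by Keap1 until a foreign or oxidising compound is sensed. The gut, fat body and Malpighian tubules are the main sites of this work.

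Between 7386960 and 9905262 expected counts were assigned per library. The doublesex isoform shares of the library labelled female lay 21.8 percentage points from those of males and 85.4 from those of mated females, so its label is in doubt and it is called the library labelled female. In the deposited FPKM, no unigene of the 10799 differed 4-fold between that library and males. Of these, 1203 are listed at FPKM 0 in every library and could not differ. Without it the same bounds gave 37 members, including all 36. The chorion protein gene Cp19 was at 1105 in mated females and at most 0.67 elsewhere, the embryonic gene sisA was at 34.1 in eggs and 18.1 in mated females, and Lsp2, a storage protein of larvae, was at 1059 in larvae and 10530 in pupae. Unigene lengths in the deposited FPKM followed the isoform mix of the egg library, within 2% for 89.2% of 3565 unigenes with several isoforms against 41.4% to 52.0% for the other libraries. For members whose feeding isoforms differ from the egg isoforms, levels rest on that choice of length.

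The members were low in eggs and pupae but were not all absent there. In eggs the FPKM ran from 0.07 to 9.85 with a median of 1.36, and in pupae from 0 to 7.91 with a median of 1.52. Only 14 members in eggs and 11 in pupae were below an FPKM of 1. The medians of the feeding libraries were 40.7 in larvae, 35.1 in mated females, 51 in males and 51.3 in the library labelled female. For each member the lowest feeding library was divided by the higher of eggs and pupae, after 1 was added to each FPKM. This ratio ranged from 2.91 to 37.1 with a median of 7.16, and it was 10 or more in 11 members. Folds between libraries given below are on the same (FPKM + 1) scale. Over all unigenes, every feeding library was above both other stages in 5.31%, and the ratio reached 2 in 1.09%. Shares over all unigenes, here and below, include the 1203 listed at FPKM 0 in every library. Those could not pass a bound on level or fold.

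**Figure D1:**
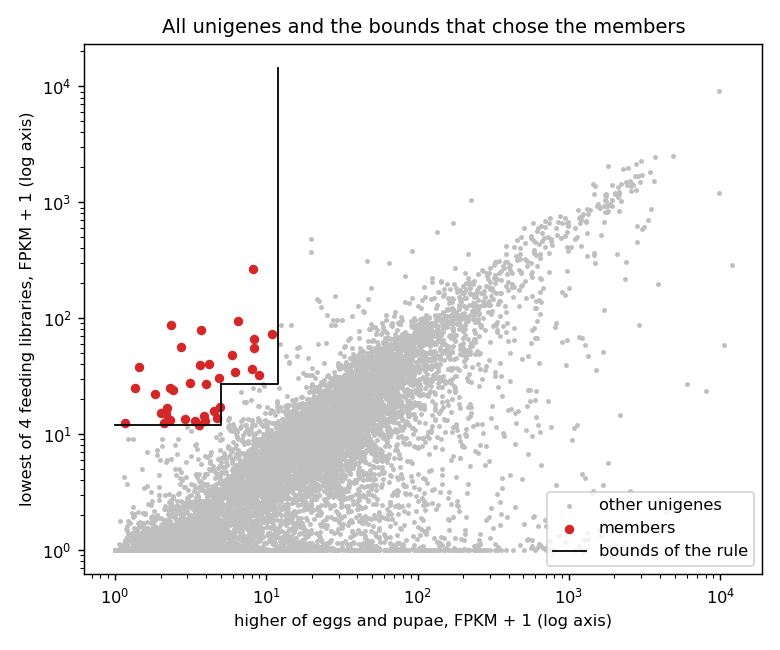
The higher of the egg and pupal FPKM plus 1 (horizontal) against the lowest of the 4 feeding libraries plus 1 (vertical), both on log axes, for all unigenes in grey and the 36 members in red. The black line marks the bounds that made the set, and other unigenes lie close to it on the outside.

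Together the members took a small part of each library. They held 0.440% of the expected counts in larvae, 0.736% in mated females, 0.665% in males and 0.581% in the library labelled female, and only 0.0170% in eggs and 0.0119% in pupae. Over the 4 feeding libraries the share was 0.615% (95% Wilson interval 0.612% to 0.617%, counting error only). A single unigene, comp30055_c0, supplied much of the adult share. Without it the shares were 0.439% in larvae, 0.395% in mated females, 0.368% in males and 0.333% in the library labelled female.

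**Figure D2:**
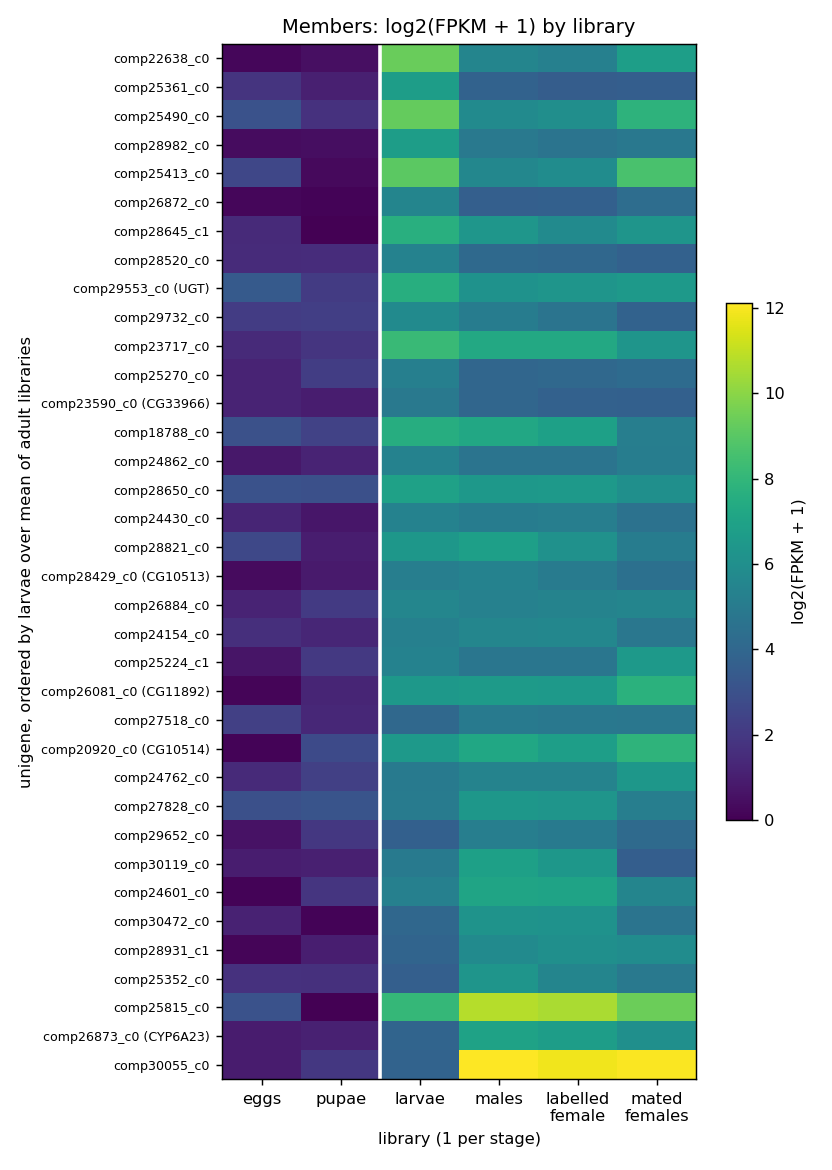
Level of each member as log2(FPKM + 1) in the 6 libraries, with members ordered from the highest to the lowest ratio of larvae to the mean of the adult libraries. The white line separates the eggs and pupae from the feeding libraries; comp30055_c0 at the bottom is the brightest in adults, and comp22638_c0 at the top is the highest in larvae relative to adults.

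Names could be given to few members. The study's supplementary lists name 6 of them, 13 are paired with a single D. melanogaster gene, 2 have only a match shared with other unigenes, and 20 have no annotation in the sources used here. Only part of the study's full annotation was among these sources, and no member was in that part. A member called unannotated below is therefore one without a name in these sources, and it may be annotated in the rest. The named members are 4 genes of the CncC/Keap1 list, 1 P450 and 1 UDP-glycosyltransferase. The CncC/Keap1 list holds unigenes paired with D. melanogaster genes whose expression changed when that pathway was activated. The study's text gives no direction, so a place on the list says neither up nor down.

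The genes CG10513, CG10514 and CG11892 of the CncC/Keap1 list lie together at D. melanogaster band 96C9, and all 3 of the list's unigenes from that band were members. In D. melanogaster they belong to the ecdysteroid kinase-like family, whose name comes from enzymes that add phosphate to moulting hormone. CG11892 (comp26081_c0) was at 86.5 in larvae, 213 in mated females, 95.1 in males and 90.8 in the library labelled female, with 0.11 in eggs and 1.36 in pupae. Its ratio of 37.1 was the largest of the members, with a counting interval of 26.1 to 51.5. That interval, like those of the ratios below, joins opposite ends of the 95% intervals of the libraries. Eggs and pupae stood far below every feeding library, and mated females were the highest.

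CG10514 (comp20920_c0) was at 93.3 in larvae, 231 in mated females, 150 in males and 110 in the library labelled female, with 0.07 in eggs and 5.51 in pupae. It rested on 1 count in eggs and 61 in pupae, the widest gap of the members toward pupae. Its ratio was 14.5 (10.9 to 19.3). Like CG11892 it was highest in mated females, and larvae were the lowest of its feeding libraries, as they also were for CG11892.

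CG10513 (comp28429_c0) was lower and flatter, at 35.8 in larvae, 21.3 in mated females, 39.9 in males and 31.7 in the library labelled female, with 0.28 in eggs and 0.84 in pupae. Its ratio was 12.1 (7.70 to 17.9), on 4 egg counts and 9 pupal counts. Unlike CG10514 and CG11892, it was lowest among feeding libraries in mated females. The 3 genes are members of a family, and reads could be divided between close copies, which was not tested.

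CG33966 (comp23590_c0), listed with vitamin E binding as its function, was at 29.0 in larvae, 12.2 in mated females, 15 in males and 12.7 in the library labelled female, with 1.29 in eggs and 0.97 in pupae. Its ratio of 5.78 (3.56 to 9.06) rested on 14 counts in eggs and 8 in pupae. Larvae had the highest level, and the 3 adult libraries lay close to the lower bound of 11. Its D. melanogaster neighbour at band 61F4, CG33965, was not a member.

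The P450 among the members was listed as CYP6A23 (comp26873_c0), of a family known in insects for oxidising plant toxins and insecticides. Its only D. melanogaster match, FBgn0033978, was not unique. It was at 13.8 in larvae, 63.5 in mated females, 125 in males and 105 in the library labelled female, with 0.89 in eggs and 1.17 in pupae. The mean of the adult libraries was 6.69 times that of larvae, and each adult library was above larvae. Its ratio of 6.82 (4.35 to 10.4) was set by larvae.

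The UDP-glycosyltransferase comp29553_c0 had the highest egg level of the set, 9.85, and was at 3.27 in pupae, against 189 in larvae, 92.7 in mated females, 72.2 in males and 79.3 in the library labelled female. With 175 egg counts and 44 pupal counts, both low libraries were well measured, and the ratio was 6.74 (5.57 to 8.19). Larvae were about 2.31 times the adult mean. Eggs were low here only relative to the feeding stages, and without TMM factors the egg value was 12.8, above the bound, so this unigene was then no member.

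The most abundant member, comp30055_c0, has no annotation in the sources used here. It was at 13.5 in larvae, 4270 in mated females, 4423 in males and 3665 in the library labelled female, with 0.87 in eggs and 2.87 in pupae. The adult mean was 285 times the larval level, the largest difference in that direction, while larvae passed the bound by little with 63 counts (exact Poisson interval 48.4 to 80.6). Its ratio of 3.73 (1.98 to 6.99) was set by larvae and pupae, not by the adult levels.

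A further 3 unannotated members were high in larvae. comp22638_c0 was at 643 in larvae, 108 in mated females, 44.0 in males and 37.2 in the library labelled female, with 0.16 in eggs and 0.43 in pupae. Larvae were 10.1 times its adult mean, the largest such ratio of the set, and its ratio of feeding to non-feeding libraries was 26.7 (13.0 to 41.6), on 1 egg count and 2 pupal counts. comp25490_c0 was at 615 in larvae, 230 in mated females, 54.4 in males and 62.3 in the library labelled female, with 7.31 in eggs and 2.29 in pupae. The unigene comp25413_c0 was at 533 in larvae, 393 in mated females, 47.5 in males and 58.4 in the library labelled female, with 4.95 in eggs and 0.22 in pupae. All 3 were higher in mated females than in males, by 8.13-fold in comp25413_c0, 4.16-fold in comp25490_c0 and 2.42-fold in comp22638_c0. The value for comp25413_c0 was the largest of the set in that direction.

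The unigene comp25815_c0, matched to FBgn0039471, was at 267 in larvae, 660 in mated females, 1723 in males and 1506 in the library labelled female, with 7.21 in eggs and 0 in pupae. It had 26 counts in eggs and none in pupae, where a count of 0 allows up to 3 counts (the upper end of the two-sided exact interval was 3.69). Its ratio was 32.6 (21.4 to 50.6), set by eggs. The adult levels depend on its length. The deposited 377 bp lay near the larval isoform mix, 374 bp, and below the egg mix, 416 bp. A 311 bp isoform led in eggs with 65.4% of the counts and in larvae with 77.0%. The mix of each adult library gives 1137 to 1138 bp, and the feeding libraries pooled give 1037 bp, far from the larval mix. With the pooled length, chosen after the values were seen, it was at 2.62 in eggs, 96.8 in larvae, 626 in males and 240 in mated females. Summed over isoforms, males were 2.35 times larvae in place of 6.44 times, and mated females were at 240 against 244 in larvae.

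Among the other members with large ratios, comp23717_c0 (FBgn0261989) was at 295 in larvae, 78.8 in mated females, 160 in males and 159 in the library labelled female, with 1.71 in eggs and 2.69 in pupae. Its ratio was 21.6 (15.7 to 29.8). The unannotated comp28645_c1 was at 196 in larvae, 78.3 in mated females, 80.8 in males and 54.9 in the library labelled female, with 1.72 in eggs and 0 in pupae, with a ratio of 20.5 (13.6 to 30.5). It and comp25815_c0 were the 2 members with no pupal count. Another unigene shared the assembled component of 3 members. For comp28645_c1 this was comp28645_c0, at 135 in eggs and 308 in pupae, and for comp28650_c0 it was comp28650_c1, at 43.9 in eggs and 32.5 in pupae. For comp28931_c1 it was comp28931_c0, which was low in both, at 1.48 and 1.96, and was at 13.2 in larvae, 4.77 in mated females, 12.9 in males and 12.3 in the library labelled female.

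A further 6 members with a D. melanogaster match were lower. FBgn0034197 (comp24601_c0) ran from 38.1 in larvae to 135 in males, with 1 egg count. FBgn0000075 (comp28931_c1) ran from 14.1 in larvae to 65.2 in the library labelled female, FBgn0035742 (comp25224_c1) from 25.9 in males to 91.7 in mated females, and FBgn0034664 (comp24154_c0) from 26.7 in mated females to 47.7 in the library labelled female. FBgn0053281 (comp24430_c0) ran from 22.8 in mated females to 40.7 in larvae, and FBgn0031517 (comp26872_c0) from 11.5 in males to 44.6 in larvae. The 6 include members that peaked in each of the 4 feeding libraries.

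Another 12 members were mostly highest in larvae or in males. The unannotated comp28982_c0 was at 106 in larvae and 23.9 to 28.4 in adults, with 0.33 in eggs and 0.36 in pupae, and comp28650_c0 was at 119 in larvae and 65.1 to 93.1 in adults. Larvae were also highest in comp18788_c0 (188), comp29732_c0 (54.3), comp24862_c0 (40.7), comp28520_c0 (40.2) and comp25270_c0 (36.1). Males were highest in comp28821_c0 (112), comp27828_c0 (85.1), comp30472_c0 (74.3) and comp29652_c0 (34.9). The last, comp24762_c0, was highest in mated females, at 84.9, and has matches shared by FBgn0032209 and FBgn0032913. The members comp27828_c0 and comp28650_c0 were detected in both low stages, at 6.64 and 7.24 in eggs and 7.91 and 6.68 in pupae.

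Counts behind the low libraries were small. In each of eggs and pupae 11 members had fewer than 10 expected counts. Pupae were above eggs in 20 members and below in 16, and counting intervals scaled to library size were apart for 9 members each way. Pupae were above eggs in 55.6% of the members, beside 45.2% of the other unigenes at 11 or more in all feeding libraries, and without TMM factors these shares were 38.9% and 28.4%. CG10514, CG11892 and comp24601_c0 were nearly without counts in eggs and had 61, 18 and 26 in pupae. In contrast comp25413_c0 had 59 counts in eggs and 2 in pupae, and comp25815_c0 had 26 and 0.

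**Figure D3:**
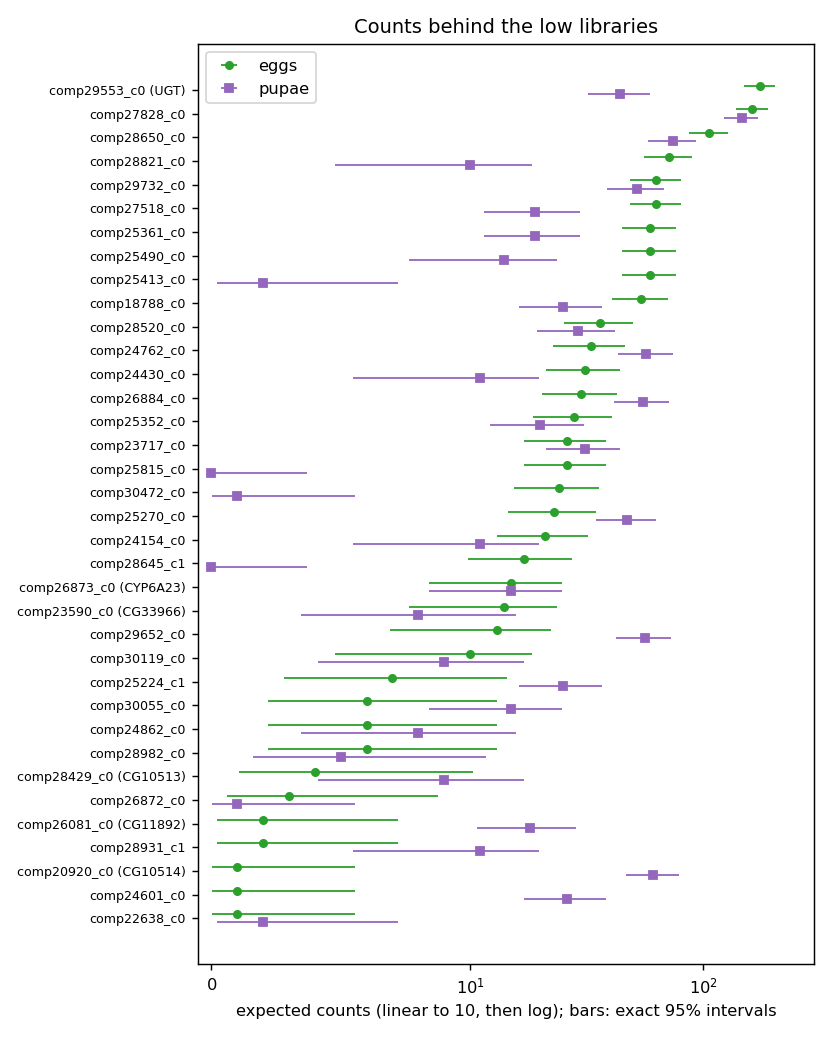
Expected counts of each member in eggs (green circles) and pupae (purple squares), on an axis that is linear to 10 and logarithmic above, with exact 95% Poisson intervals as bars. Members at the top, such as the UDP-glycosyltransferase comp29553_c0 with 175 egg counts, were low but clearly detected, while those at the bottom had 1 to 4 egg counts.

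The bounds ask only for a minimum in each feeding library, so the order of those libraries was not used to choose the members. Larvae were the highest of the 4 in 18 members, males in 12, mated females in 4 and the library labelled female in 2. Larvae lay above every adult library in 18 members and below every one in 13, so 86.1% of the members had larvae at one end, beside 60.8% of the 3109 other unigenes at 11 or more in all feeding libraries. In those unigenes larvae were the highest in 35.9%, males in 17.1%, mated females in 36.2% and the library labelled female in 10.8%. Without TMM factors the highest library was larvae in 16, males in 10, mated females in 9 and the library labelled female in 1. Under that scaling larvae were above every adult library in 16 members and below every one in 13, and mated females were the highest in 50.2% of the other unigenes.

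The spread of a member among the feeding libraries was set beside that of other unigenes expressed there. The highest over the lowest feeding library, again on (FPKM + 1), had a median of 3.47 in the members and 2.08 in the 3109 other unigenes at 11 or more in all 4 libraries. It was at least 4 in 14 members (38.9%), against a background of 11.7% of all 3145 unigenes at that level and 25.2% of all unigenes. Without the library labelled female the number was 12. The spread ran from 1.18 in comp26884_c0, which was at 46.4 in larvae, 44.8 in mated females, 39.4 in males and 41.5 in the library labelled female, to 306 in comp30055_c0. With no replicates, these differences have no error of their own beyond counting.

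By pair of libraries, larvae were at least 4-fold over males in 4 members, against a background of 2.35% of the unigenes at 11 or more in the feeding libraries and 6% of all unigenes. Males were 4-fold over larvae in 5 (2.29% and 5.94%). The 4 were comp22638_c0, comp25490_c0, comp25361_c0 and comp25413_c0, and the 5 were comp30055_c0, comp25815_c0, CYP6A23, comp25352_c0 and comp30472_c0. Summed over isoforms, comp25815_c0 was no longer past 4-fold and comp28931_c1 was, while comp25352_c0 and comp30472_c0 kept their difference but had larvae at 9.93 and 10.7, under the bound of membership. Larvae were 4-fold over mated females in 4 (4.23% and 9.77%) and mated females over larvae in 2 (1.94% and 6.32%). Larvae were 4-fold over the library labelled female in 5 (2.67% and 6.02%), and the reverse held in 5 (1.94% and 5.7%). The median of larvae over mated females was 1.53 in the members and 0.987 in the other unigenes expressed in these libraries.

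**Figure D4:**
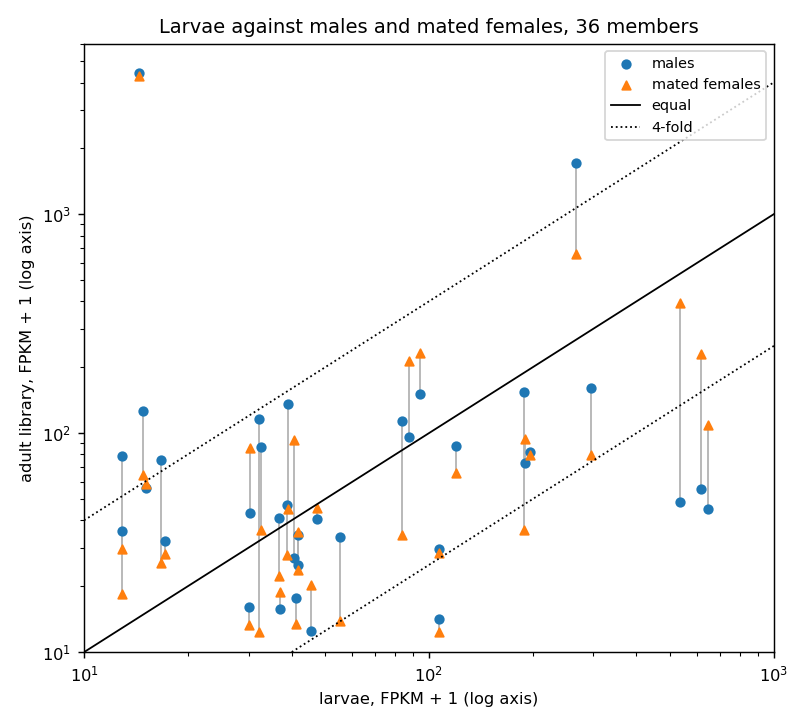
FPKM plus 1 of each member in larvae (horizontal) against males (blue circles) and mated females (orange triangles), both on log axes, with a grey line joining the pair. The solid line is equality and the dotted lines are 4-fold; comp30055_c0 stands alone at upper left and the 3 larval members at 533 or more stand at the right.

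Males and the library labelled female were within 2-fold of each other in all 36 members, as they were in 99.97% of the other unigenes at 11 or more in the feeding libraries, so the members matched the background. The background of 4-fold differences was 0% in both directions. The widest gap was 1.73-fold, in comp25352_c0 (FBgn0039703), which was at 11.9 in larvae, 28.5 in mated females, 78.0 in males and 44.8 in the library labelled female, with 2.35 in eggs and 2.22 in pupae. In the other direction it was 1.22-fold, in comp25413_c0. The doubt over the label applies to each of these values.

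Males were at least 4-fold over mated females in 2 members (background 2.54% and 6.37%), comp30119_c0 and comp18788_c0, and mated females over males in 2 (2.48% and 5.26%), comp25413_c0 and comp25490_c0. The unannotated comp30119_c0 had the largest ratio of males to mated females, at 31.1 in larvae, 11.4 in mated females, 115 in males and 85.2 in the library labelled female, with 0.93 in eggs and 1.1 in pupae. Males were 9.42 times mated females there. Between these 2 libraries, sex, mating and age cannot be told apart. The library labelled female was 4-fold over mated females in 1 member (2.45% and 6.9%) and below in 1 (2.7% and 5.34%). The median of males over mated females was 1.18 in the members and 0.890 in the comparison unigenes. Without TMM factors both medians were lower, at 1 in the members and 0.75 in the comparison unigenes, so males above mated females in the members depended on the scaling.

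Isoform use also differed between larvae and adults in some members. A single isoform was assembled for 21 of the 36 (58.3%), against 41.0% of the comparison unigenes and 59.6% of all unigenes, and the median length was 1528 bp against 2017 bp and 1808 bp. Of the 15 members with several isoforms, 8 kept 1 leading isoform in all feeding libraries (53.3%), against 56.3% of 1835 comparison unigenes, and 7 did not. The share that changed leader was thus close to that of the comparison.

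In comp25815_c0 the 311 bp isoform took 77.0% of larval counts and 0.0503% of male counts, and the 1139 bp isoform took the rest. In comp25352_c0 the isoform with 75% of larval counts had none in males. In comp28821_c0 one isoform held 99.4% of larval and 90.3% of mated female counts but 46.3% of male counts, so mated females resembled larvae there. In comp30119_c0 the leading isoform had 61.7% in larvae, another had 77.9% in mated females, and yet another had 33.4% in males.

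**Figure D5:**
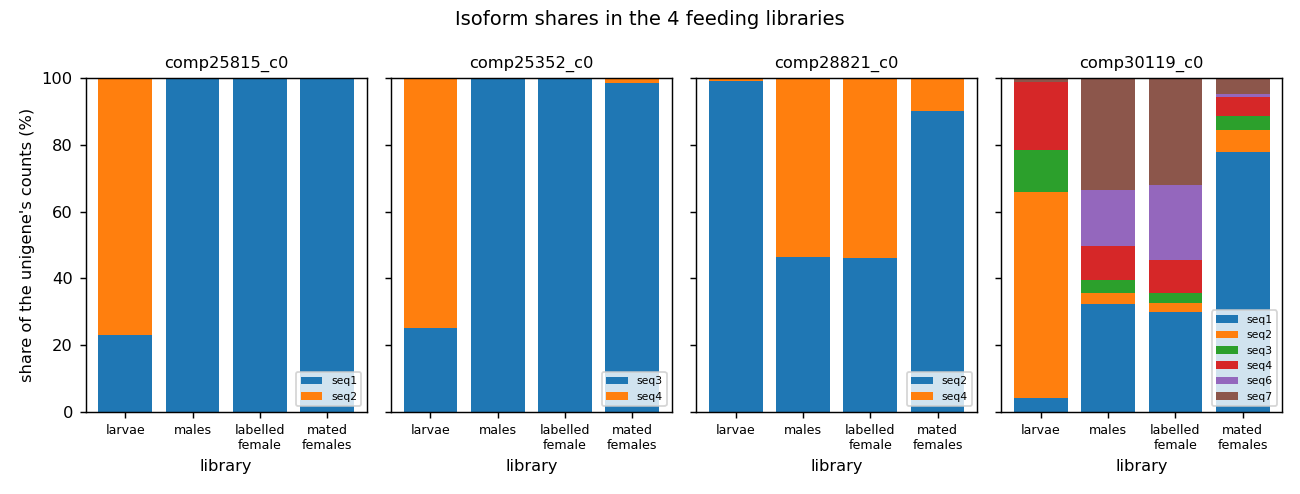
Share of each unigene's expected counts taken by its isoforms (%, stacked to 100) in the 4 feeding libraries, for comp25815_c0, comp25352_c0, comp28821_c0 and comp30119_c0. The larval column differs from the male column in all 4 panels, from 77.0% to 0.0503% for the short isoform of comp25815_c0, for example.

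Set against the study's own gene lists, members were 4 of 141 unigenes of the CncC/Keap1 list (2.84%), 1 of 23 UDP-glycosyltransferases (4.35%), 1 of 92 P450s (1.09%) and 0 of 34 glutathione S-transferases, beside 0.333% of all unigenes. A list of 74 unigenes annotated to digestion, chitin binding, odorant binding or transport came from part of the study's annotation and the CncC/Keap1 list. No member was in that part, so only members on the CncC/Keap1 list could have entered. The list held 0 members, which this largely fixed in advance. Of its unigenes, 64 were under 11 in a feeding library, 17 of them listed at 0 in every library, and could not meet the bounds. The same held for 62 of the P450s, 8 of the glutathione S-transferases, 14 of the UDP-glycosyltransferases and 91 of the CncC/Keap1 list. These lists were read with earlier results known and are descriptions.

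The looser pattern, in which every feeding library was above both eggs and pupae, held for 20.7% of the P450s, 26.1% of the UDP-glycosyltransferases, 17% of the CncC/Keap1 list, 11.8% of the glutathione S-transferases and 4.05% of the digestion list, beside 5.31% of all unigenes. Among the 3145 unigenes at 11 or more in all feeding libraries it held for 11.1%. At that level were 26 of 34 glutathione S-transferases, 30 of 92 P450s, 9 of 23 UDP-glycosyltransferases, 50 of 141 unigenes of the CncC/Keap1 list and 10 of 74 of the digestion list. The shares of the lists above are over whole lists, and they were not computed at that level. A ratio of 2 or more was reached by 6 of 92 P450s, 9 of 141 unigenes of the CncC/Keap1 list, 1 of 34 glutathione S-transferases and 1 of 23 UDP-glycosyltransferases. Over all 10799 unigenes it was reached by 118 (1.09%). The P450 CYP6T1 had a ratio of 5.44 but was no member, at 508 in larvae, 123 in mated females, 723 in males and 794 in the library labelled female, with 21.9 in eggs and 14.3 in pupae. CG33306 of the CncC/Keap1 list had a ratio of 4.39 and was at 8 in the library labelled female, under the bound. The bounds thus leave out unigenes of the same shape at a higher or lower level. These non-members were named after their values were seen.

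The members nearest the bounds show how fine the division was. comp25361_c0 was just inside, at 106 in larvae, 11.4 in mated females, 13.2 in males and 11.01 in the library labelled female, with 2.59 in eggs and 1.1 in pupae. comp27518_c0 was inside with 3.95 in eggs and 27.1 in mated females. The P450 CYP6A9 (comp27856_c0) was just outside, with 4.14 in eggs, 8.53 in pupae and 25.99 in mated females. So was comp26988_c0, at 11.2 in eggs and 2.83 in pupae with 59.2 to 201 in the feeding libraries. CYP4G1 (comp29180_c1), a P450 of cuticle hydrocarbon synthesis that was left out of the set by name, does not meet the bounds, with 430 in pupae.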

How the data were processed

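The authors removed reads of low quality, built transcripts with Trinity and retained those predicted to be coding. They aligned each library with bowtie (version 0.12.7 in the submitters' notes) and estimated abundance with RSEM (1.2.0 in the notes, while the study's methods give another version for this step). They deposited expected counts, not normalized, and FPKM values with TMM factors, for 10799 unigenes and their isoforms. Here the bounds were applied to the deposited FPKM, and ratios used FPKM plus a pseudocount of 1. TMM factors (0.868 to 1.30) and lengths were recovered from the ratio of counts to FPKM. Of the unigenes, 1203 without egg counts are listed at FPKM 0 in every library.

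Intervals are exact Poisson (expected counts rounded to whole numbers) or Wilson intervals at 95%, for counting error only. The interval of a ratio joins opposite ends of the 95% intervals of its libraries, so it is wider than a 95% interval of the ratio. With 1 library per stage no test was run. DESeq2 1.42.0 in R 4.3.3 gave alternative size factors, and the rest used Python 3.11.15 with pandas 2.3.3 and scipy 1.17.1. The steps were tested on simulated data. Columns without a sample numbered 0.

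Unigenes named in full are members named in the study's lists, the 5 highest, the 5 largest ratios, the extremes of each comparison and those nearest the bounds. Others named were chosen after their values were seen. Members, lists and this rule were chosen with earlier results of these data known.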

Additional observations from a re-analysis of the deposited data

Results flagged for a closer look

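The 1203 unigenes without egg counts are listed at FPKM 0 in every library, so the bounds could not be applied to their deposited values. Of these, the 2 that came nearest to the bounds after FPKM was recomputed from their counts are given here. The unigene comp14807_c0 (FBgn0043575) had 1626 expected counts over the 4 feeding libraries and 0 in eggs and pupae. Its recomputed FPKM was 95.1 in larvae, 158 in mated females, 12.8 in males and 10.6 in the library labelled female, so only the library labelled female fell under the bound of 11. The unigene comp21484_c0 had 465 counts in the feeding libraries, 0 in eggs and 1 in pupae. Its recomputed FPKM was 18.4 in larvae, 49.9 in mated females, 21.1 in males and 10.5 in the library labelled female. None of the 1203 met the bounds when recomputed.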

How the results depend on the processing

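The number of members depended on the bounds more than on the scaling. It was 36 as reported, 8 with 26 against 4 alone, 82 with 11 against 11, 86 without larvae, 55 without mated females, 120 with eggs alone low and 82 with pupae alone low. It was 30 without TMM factors, of which 29 were among the 36 (the unigenes lost were comp25352_c0, comp25361_c0, comp26872_c0, comp27518_c0, comp29553_c0, comp29652_c0 and comp29732_c0), 37 without the library labelled female, 36 without males, 36 with a filter on low counts or with the unigenes listed at 0 recomputed, and 34 to 38 under DESeq2 size factors, summed isoforms, thinned counts and feeding isoform lengths (the last chosen after the values were seen). Summed isoforms lost comp25352_c0, comp29652_c0 and comp30472_c0 and gained 5, and thinning lost comp25361_c0 and comp30119_c0. The members' share of feeding counts was 0.572% without TMM factors, 0.637% with DESeq2, 0.636% with summed isoforms, 0.601% after thinning and 0.635% with feeding lengths; in eggs and pupae it was 0.0117%, 0.0161%, 0.0176%, 0.0137% and 0.0166%. These are shares of the sets chosen under each setting. With a fold of 2, 29 members varied among the feeding libraries in place of 14; under the other settings the number was 10 to 14. The median ratio was 6.75 to 7.66 under the scaling and length settings and 9.49 with a pseudocount of 0.1. The lowest ratio of a member over the scaling and length settings was 2.45, while the bounds allow none under 2.25 at the deposited scaling. No paired analysis was possible because each stage has 1 library. Depth limits the low libraries, where 11 members in eggs and 11 in pupae had under 10 counts.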
